A study of Mus musculus with 8 samples.

Results

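Macrophages stimulated with LPS transcribe a group of genes whose proteins are measured in blood and stool as signs of inflammation, and 7 of them are described here: *S100a8*, *S100a9*, *S100a4*, *Saa1*, *Saa3*, *Lcn2* and *Hp*. They were taken by gene symbol, as the probe sets annotated to that symbol alone, with the brightest probe set standing for a gene with several. All 7 were measured, out of 18183 genes with such a probe set, by 8 of the 45101 probe sets, since *Saa1* had a second one. The cells were bone marrow-derived macrophages (BMDM), grown from frozen femur marrow of C57Bl/6 mice for 7 days in medium with 15% supernatant of L929 cells. The arrays fall into 4 groups of 2: miR-155-/-(LPS + IL-10) and miR-155-/-(LPS), from male animals that lack miR-155, and WT(LPS + IL-10) and WT(LPS), from female wild type animals. All cells received LPS at 100 ng/ml for 24 h, and those given IL-10 (20 ng/ml) received it 5 min before the LPS, so that no group shows the genes without LPS. Arrays of a genotype were paired by replicate number, and by that pairing each animal gave marrow to an LPS array and an LPS + IL-10 array. The labels give no ages. By the labels genotype and sex cannot be told apart in these arrays. The study's general methods for growing macrophages instead name adult female littermates, with an age range. The sex of the animals was not checked here.

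*S100a8* and *S100a9* encode the subunits of calprotectin, which neutrophils and activated myeloid cells release, which withholds zinc and manganese from microbes and which can signal through Toll-like receptor 4. *S100a4* encodes a related calcium-binding protein of motile cells. *Saa1* and *Saa3* encode serum amyloid A proteins: in the mouse *Saa1* is made mainly in the liver during the acute phase and travels on lipoprotein, while *Saa3* is made outside the liver, in macrophages and fat. *Lcn2* encodes lipocalin 2, which binds bacterial siderophores and so withholds iron, and *Hp* encodes haptoglobin, which binds free haemoglobin for uptake through the receptor encoded by *Cd163*. Genes of the acute phase are commonly induced through STAT3, C/EBP factors and NF-kappaB, below the receptors of IL-6 and IL-1, and IL-10 also acts through STAT3.

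Of the genes on mouse assembly GRCm38.p6, *S100a4* (chr3:90603770-90606045), *S100a8* (chr3:90669071-90670034) and *S100a9* (chr3:90692630-90695721) lie in the S100 cluster of chromosome 3, and *Saa3* (chr7:46711998-46719615) and *Saa1* (chr7:46740497-46743181) lie in the serum amyloid cluster of chromosome 7, with *Saa2* (chr7:46751833-46754313) next to *Saa1*. *Lcn2* lies at chr2:32384637-32387739 and *Hp* at chr8:109575128-109579172. The 300 bases around a transcript start are shown for calprotectin, whose subunits differed on these arrays, and for serum amyloid A, whose genes differed from one another (RefSeq, GRCm38.p6, 5′ to 3′, most of them before the start). The start in the RefSeq promoter table is the outermost start of the gene for *S100a8*, *S100a9* and *Saa2*, but lies 201 bases inside the *Saa1* gene and 3939 bases inside the *Saa3* gene, so the *Saa3* window is not upstream of the whole locus. Capitals mark TTGCNNAA, a motif bound by C/EBP factors, searched on both strands.
S100a8, chr3:90668821-90669120, forward strand: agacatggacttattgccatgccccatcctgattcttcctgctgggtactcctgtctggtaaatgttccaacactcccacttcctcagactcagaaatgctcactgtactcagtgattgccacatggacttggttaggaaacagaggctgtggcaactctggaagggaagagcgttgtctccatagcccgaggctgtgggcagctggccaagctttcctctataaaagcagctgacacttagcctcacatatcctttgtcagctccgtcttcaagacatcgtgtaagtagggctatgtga
S100a9, chr3:90695672-90695971, reverse strand: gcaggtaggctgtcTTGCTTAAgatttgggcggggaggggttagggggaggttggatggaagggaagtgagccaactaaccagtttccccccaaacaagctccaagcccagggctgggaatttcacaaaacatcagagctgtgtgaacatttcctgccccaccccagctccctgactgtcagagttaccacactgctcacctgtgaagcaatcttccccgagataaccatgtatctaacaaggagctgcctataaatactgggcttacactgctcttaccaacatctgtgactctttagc
Saa1, chr7:46742931-46743230, reverse strand: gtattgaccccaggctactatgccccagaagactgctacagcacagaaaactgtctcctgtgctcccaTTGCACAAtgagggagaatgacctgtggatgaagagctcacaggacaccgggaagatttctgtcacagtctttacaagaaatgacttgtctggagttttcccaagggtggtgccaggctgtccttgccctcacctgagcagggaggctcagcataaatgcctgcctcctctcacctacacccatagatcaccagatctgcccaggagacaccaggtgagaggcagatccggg
Saa2, chr7:46751583-46751882, forward strand: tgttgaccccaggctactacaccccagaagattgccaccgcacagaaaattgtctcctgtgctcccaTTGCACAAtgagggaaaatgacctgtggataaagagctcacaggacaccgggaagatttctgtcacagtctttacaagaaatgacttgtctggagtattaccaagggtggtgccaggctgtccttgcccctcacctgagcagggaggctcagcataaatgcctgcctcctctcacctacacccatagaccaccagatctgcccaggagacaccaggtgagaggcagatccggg
Saa3, chr7:46715627-46715926, reverse strand: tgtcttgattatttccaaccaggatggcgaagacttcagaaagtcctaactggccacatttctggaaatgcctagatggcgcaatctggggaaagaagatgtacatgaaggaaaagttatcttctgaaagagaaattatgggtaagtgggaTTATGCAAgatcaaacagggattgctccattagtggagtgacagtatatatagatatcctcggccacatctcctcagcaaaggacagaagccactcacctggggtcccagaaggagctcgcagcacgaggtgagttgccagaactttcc
For the microRNA that the knockout lacks, the mature sequence (RefSeq, GRCm38.p6, chr16:84714143-84714165, forward strand) is shown because genotype is one side of the design, with its seed, bases 2 to 8, in capitals.
miR-155-5p: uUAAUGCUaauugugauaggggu

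The promoters of *Saa1* and *Saa2* are near copies, with 287 of 299 aligned bases identical (96%), while all other pairs among the 7 promoters compared were 48.8% to 62.4% identical. The C/EBP motif was found in those of *S100a9* (236 bases before the start of the table), *Saa1* (182 before), *Saa3* (99 before) and *Lcn2* (216 before), and in 10.8% of 27025 promoters of the same length. It was not found in the windows of *S100a8* and *S100a4*, and *Hp* was not matched to a promoter. The NF-kappaB motif searched, GGG and CC with 5 free bases between them, was found on either strand in the windows of *S100a4*, *Saa1* and *Lcn2* and in 50.4% of all promoters. TTCNNNGAA, bound by STAT factors, was found on either strand in 0 of the members' windows and in 8.47% of all promoters.

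**Figure D1:**
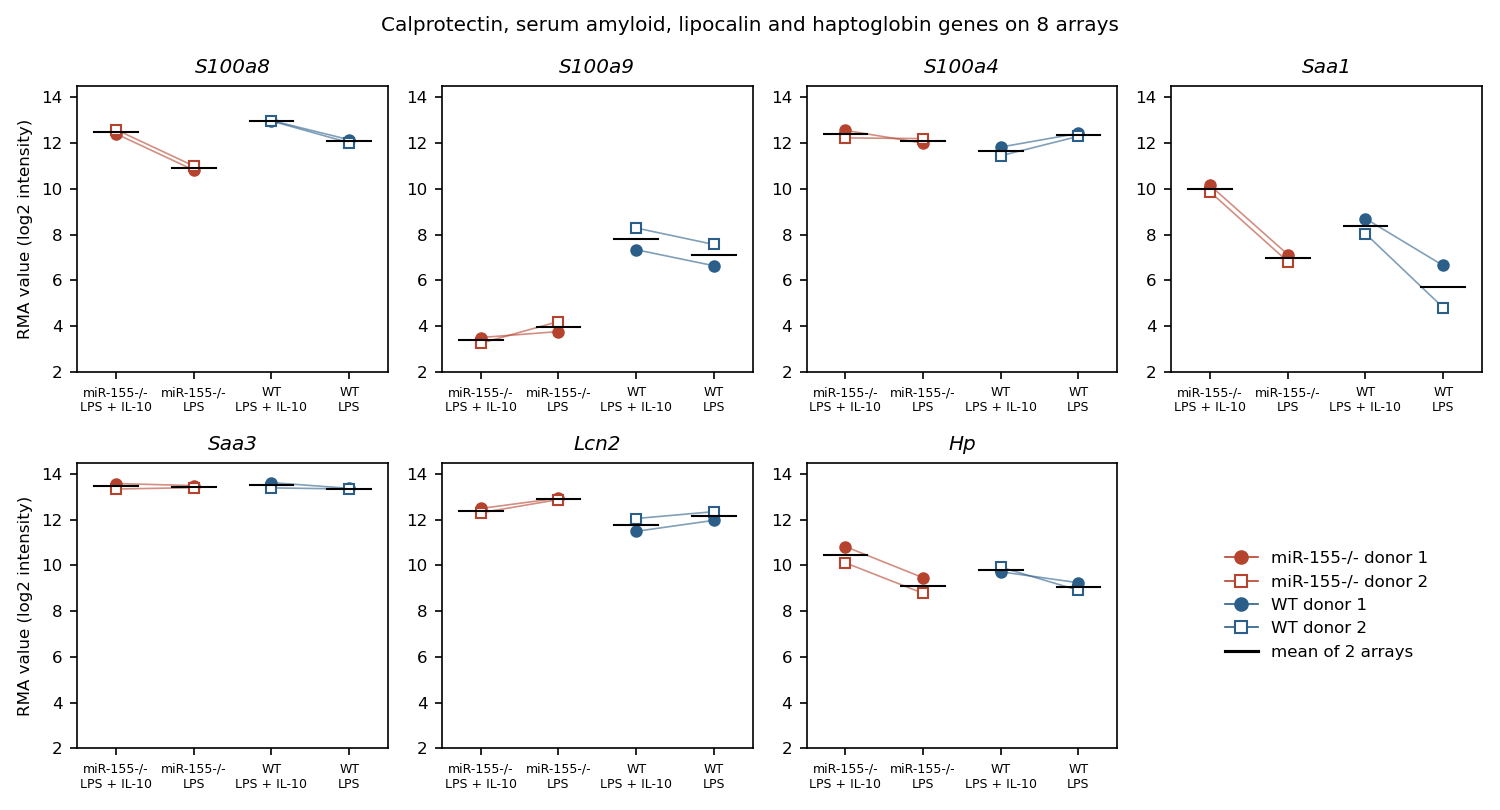
Deposited log2 RMA values of the 7 genes on each of the 8 arrays (points, with a line joining the arrays of 1 donor and a bar at the mean of each group). *S100a9* lies between 3.25 and 4.20 on the miR-155-/- arrays and between 6.64 and 8.29 on the WT arrays, and *Saa3* lies between 13.34 and 13.62 on every array.

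In miR-155-/-(LPS) both subunits of calprotectin were lower than in WT(LPS), and no other member passed the test. Values are RMA intensities on a log2 scale, and a call is an adjusted p under 0.05 from limma over 45008 probe sets. *S100a8* read 10.82 and 11 in miR-155-/-(LPS), against 12.15 and 12.02 in WT(LPS). The groups do not overlap, and the gene was lower (−1.17 on the log2 scale, SE 0.13, adjusted p = 0.0140), or 2.25-fold lower. *S100a9* read 3.76 and 4.20 in miR-155-/-(LPS), against 6.64 and 7.57 in WT(LPS). It was lower (−3.12, SE 0.37, adjusted p = 0.0153), and the groups lie far apart. These 2 of 7 lower members, with 0 higher, stand beside 0.513% of all probe sets lower and 0.951% higher in the same comparison. The members' median difference was 0.05, against 0.03 over all genes. Neither call held without any 1 of the 4 arrays compared (adjusted p = 0.0581 to 0.126 for *S100a8* and 0.0650 to 0.130 for *S100a9*) or in a fit of those 4 arrays alone (adjusted p = 0.0898 and 0.0814). Leaving out both arrays of WT donor 1 leaves 1 array in each WT group. The differences were then −3.58 for *S100a9* and −1.11 for *S100a8*.

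The other 5 members did not pass in miR-155-/-(LPS) against WT(LPS). Of them 2, *Lcn2* and *Saa1*, had an unadjusted p under 0.05 (limma), as had 6207 of 45008 probe sets. *Lcn2* read 12.94 and 12.88 in miR-155-/-(LPS), against 11.97 and 12.35 in WT(LPS), a difference of 0.75 (SE 0.21, limma adjusted p = 0.165). *Saa1* read 7.13 and 6.82, against 6.65 and 4.81, a difference of 1.24 (SE 0.52, adjusted p = 0.354). WT donor 1 and WT donor 2 stand far apart for *Saa1*, and against the 1 array of WT donor 2 the difference was 2.16. *S100a4* differed by −0.26 (95% interval −0.72 to 0.19), *Saa3* by 0.09 (−0.26 to 0.43) and *Hp* by 0.05 (−0.63 to 0.72). By the selection of the study's methods, a log2 difference over 1 in size with p under 0.05 before adjustment, 3 members were selected (*S100a8*, *S100a9* and *Saa1*), beside 2.52% of all probe sets.

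With IL-10 present, *S100a9* was the 1 member called between the genotypes. It read 3.50 and 3.25 in miR-155-/-(LPS + IL-10), against 7.34 and 8.29 in WT(LPS + IL-10), and was lower (−4.44, SE 0.37, limma adjusted p = 0.0186). The call was lost without any 1 of the 4 miR-155-/- arrays or of the 2 WT(LPS + IL-10) arrays (highest adjusted p 0.159) and held without either WT(LPS) array. Without both arrays of WT donor 1, against the 1 WT(LPS + IL-10) array left, the difference was −4.92. This was 1 lower and 0 higher of the 7, beside 0.0333% of all probe sets lower and 0.0378% higher. *S100a8* read 12.41 and 12.59 in miR-155-/-(LPS + IL-10), against 12.99 and 12.97 in WT(LPS + IL-10), a difference of −0.48 (SE 0.13, adjusted p = 0.362). Both WT arrays lay above both miR-155-/- arrays for either subunit.

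On the miR-155-/- arrays *S100a9* was read at the level of genes of other tissues, where the median over all probe sets tested was 3.88 to 3.89. Its group means there, 3.37 with IL-10 and 3.98 without, lie among genes that macrophages are not known to use: of 21 genes of other tissues, 8 and 5 read higher in the same groups, and the medians of these genes were 3.15 and 3.07. This limits how far the size of its genotype difference can be read. *Saa1* in WT(LPS), at 5.73, was below 2 of the 21. The brightest of the 21, *Mbp*, whose locus also has transcripts in blood cells, read 8.94 to 9.30 and lay above *S100a9* in all 4 groups, above *Saa1* in all but miR-155-/-(LPS + IL-10), and above *Hp* in both groups without IL-10. *Saa3* stands at the other end of the scale: 6 of 45008 probe sets had a higher mean over the arrays.

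The remaining members were not called between miR-155-/-(LPS + IL-10) and WT(LPS + IL-10). Of the 7, 5 had an unadjusted p under 0.05 in limma, *S100a9* and *S100a8* included, beside 4026 of 45008 probe sets. *Saa1* read 10.15 and 9.87, against 8.70 and 8.04 in WT(LPS + IL-10) (1.64, SE 0.52, adjusted p = 0.415). *S100a4* read 12.56 and 12.23, against 11.83 and 11.45 (0.75, SE 0.19, adjusted p = 0.313). *Lcn2* read 12.49 and 12.30, against 11.49 and 12.05 (0.62, SE 0.21, adjusted p = 0.452). In these 3 genes both miR-155-/- arrays lay above both WT arrays, as they did for *Hp*, which differed by 0.64 (−0.04 to 1.32). How often this holds over all genes was not counted. *Saa3* differed by −0.05 (−0.39 to 0.30). The study's selection took *S100a9* and *Saa1*, beside 1.22% of all probe sets, and the members' median was 0.62, against 0.03 over all genes.

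**Figure D2:**
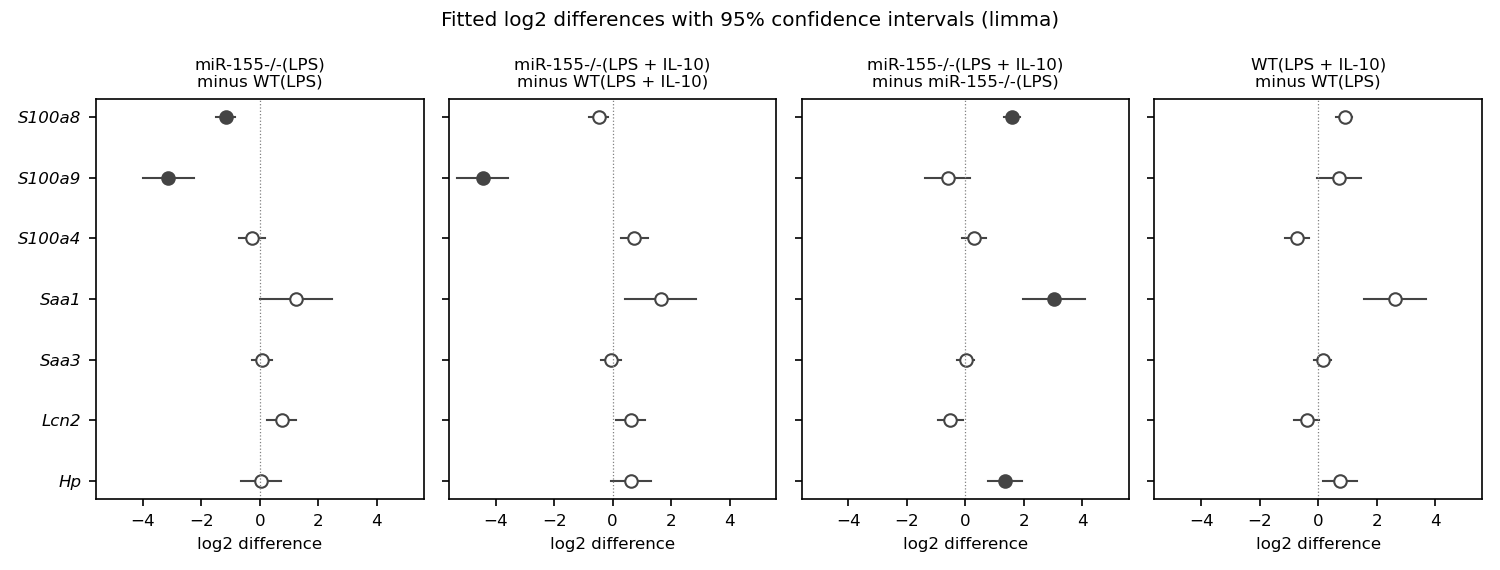
Fitted log2 differences of the 7 genes in 4 comparisons (points) with 95% confidence intervals (bars), filled where the limma adjusted p is under 0.05. The filled points are *S100a8* (−1.17) and *S100a9* (−3.12) in the first panel, *S100a9* (−4.44) in the second and *S100a8* (1.59), *Saa1* (3.04) and *Hp* (1.35) in the third, and the fourth has none.

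IL-10 raised *S100a8*, *Saa1* and *Hp* in miR-155-/- BMDM. *S100a8* read 12.41 and 12.59 in miR-155-/-(LPS + IL-10), against 10.82 and 11 in miR-155-/-(LPS), higher by 1.59 (SE 0.12, limma adjusted p = 0.00261), or 3.0-fold. Both donors gave nearly the same difference, 1.59 and 1.58, and the call held without each of the 8 arrays in turn (highest adjusted p 0.0376). *Saa1* read 10.15 and 9.87, against 7.13 and 6.82 in miR-155-/-(LPS), higher by 3.04 (SE 0.45, adjusted p = 0.0211), or 8.22-fold. Only 7 of 18183 genes had a more positive difference in these cells. *Hp* read 10.82 and 10.11, against 9.46 and 8.78, higher by 1.35 (SE 0.25, adjusted p = 0.0432), or 2.54-fold, and donor 1 lay above donor 2 in both states. The 3 of 7 higher members, with 0 lower, stand beside 1.26% of all probe sets higher and 1.42% lower, and the study's selection took the same 3, beside 2.51% of all probe sets.

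The calls of *Saa1* and *Hp* were less firm than that of *S100a8*. Without the donor block their adjusted p was 0.0663 and 0.117. *Saa1* was not called without any 1 of the 4 miR-155-/- or the 2 WT(LPS + IL-10) arrays (highest adjusted p 0.148), and was called without both arrays of WT donor 1 (adjusted p = 0.00303). *Hp* was not called without any 1 of the 8 arrays (highest adjusted p 0.242) or without WT donor 1 (adjusted p = 0.0553). *Lcn2*, the other iron-withholding protein of the group, had a negative difference: it read 12.49 and 12.30 in miR-155-/-(LPS + IL-10), against 12.94 and 12.88 in miR-155-/-(LPS), a difference of −0.52 (SE 0.18, adjusted p = 0.207). *S100a9* differed by −0.61 (95% interval −1.37 to 0.15), *S100a4* by 0.29 (−0.10 to 0.69) and *Saa3* by 0.01 (−0.29 to 0.31). The members' median was 0.29, against −0.00 over all genes.

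In WT BMDM no member passed the test, beside 0.00889% of all probe sets called higher and 0.0222% lower. An unadjusted p under 0.05 (limma) was found for 4 of the 7 and for 4172 of 45008 probe sets. *Saa1* read 8.70 and 8.04 in WT(LPS + IL-10), against 6.65 and 4.81 in WT(LPS), a difference of 2.64 (SE 0.45, adjusted p = 0.144). Only 1 of 18183 genes had a more positive difference. With the donor as a fixed block the limma adjusted p was 0.0396. WT donor 2 alone, 1 pair of arrays, gave a difference of 3.23. *S100a8* read 12.99 and 12.97, against 12.15 and 12.02, a difference of 0.90 (SE 0.12, adjusted p = 0.0875). *Hp* read 9.72 and 9.92, against 9.24 and 8.91 (0.75, SE 0.25, adjusted p = 0.453), and *S100a4* read 11.83 and 11.45, against 12.43 and 12.30 (−0.72, SE 0.17, adjusted p = 0.264). The 2 groups do not overlap in these 4 genes, nor in *Saa3*. With 2 arrays in each group such a separation can arise by chance, and its share over all genes was not counted. *S100a9* differed by 0.71 (95% interval −0.05 to 1.47), *Lcn2* by −0.39 (−0.82 to 0.04) and *Saa3* by 0.15 (−0.15 to 0.45), and the study's selection took *Saa1* alone, beside 0.689% of all probe sets. The members' median was 0.71, against −0.00 over all genes.

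Averaged over both genotypes, with each of the 4 donors as its own control, IL-10 raised the same 3 genes. *Saa1* was higher by 2.84 (SE 0.32, limma adjusted p = 0.00758) and *S100a8* by 1.24 (SE 0.08, adjusted p = 0.00229). Both rose in 4 of 4 donors and were called without each of the 8 arrays in turn (highest adjusted p 0.0463 and 0.0178). *Hp* was higher by 1.05 (SE 0.18, adjusted p = 0.0312), in 4 of 4 donors, and was not called without any 1 array (highest adjusted p 0.163), without WT donor 1 (0.0573) or without the donor block (0.0904). Only 2 of 18183 genes had a more positive mean difference than *Saa1*, 57 than *S100a8* and 106 than *Hp*. *Lcn2* was lower in 4 of 4 donors, with differences of −0.45 and −0.59 in miR-155-/- and −0.47 and −0.30 in WT donors, and its mean of −0.45 did not pass (SE 0.13, adjusted p = 0.144). These 3 higher members, with 0 lower, stand beside 1.17% of all probe sets higher and 1.43% lower, and the study's selection took the same 3, beside 1.22%. The members' median was 0.08, against 0.00 over all genes.

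**Figure D3:**
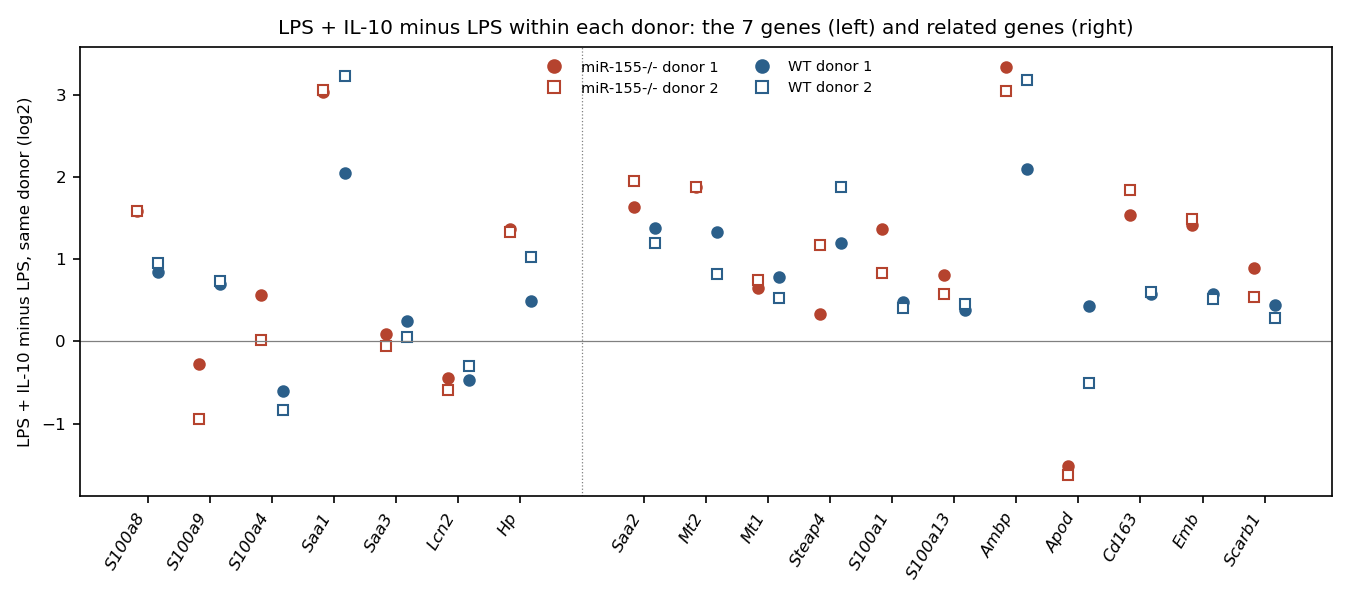
Difference between the LPS + IL-10 and the LPS array of the same donor (log2) for the 7 genes, left of the dotted line, and for 11 related genes described further on, right of it. Points show single donors, and *Saa1* lies between 2.05 and 3.23, *S100a8* between 0.84 and 1.59 and *Lcn2* between −0.59 and −0.30 in all 4 donors.

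The IL-10 effect itself was not shown to differ between the genotypes for any member, and none of the 7 passed that test (limma), beside 0% of all probe sets higher and 0.0333% lower in miR-155-/-. *S100a8* rose by 1.59 and 1.58 in the miR-155-/- donors and differed by 0.84 and 0.95 in the WT donors, a difference of 0.69 (SE 0.17, unadjusted p = 0.00413, adjusted p = 0.313). With an intensity trend and robust hyperparameters its adjusted p was 0.04998. *S100a4* differed by 0.56 and 0.02 in the miR-155-/- donors and by −0.60 and −0.84 in the WT donors, which gives 1.02 (SE 0.24, unadjusted p = 0.00359, adjusted p = 0.307). *S100a9* differed by −0.27 and −0.95 in the miR-155-/- donors and by 0.70 and 0.73 in the WT donors. This gives −1.32 (SE 0.46, limma unadjusted p = 0.0228, adjusted p = 0.426), on miR-155-/- values at the level of genes of other tissues. The other 4 lay between −0.14 for *Saa3* and 0.59 for *Hp*. The study's selection took *S100a4* and *S100a9*, beside 1.76% of all probe sets, and the members' median was 0.40, against −0.01 over all genes.

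The order of the 4 groups differed from gene to gene. The spread within groups, pooled over the 4 groups, was 0.10 for *S100a8*, 0.12 for *Saa3*, 0.20 for *S100a4*, 0.25 for *Lcn2*, 0.37 for *Hp*, 0.50 for *S100a9* and 0.71 for *Saa1* (SD, 4 degrees of freedom). *Saa1* was highest in miR-155-/-(LPS + IL-10) at a mean of 10.01, then WT(LPS + IL-10) at 8.37, miR-155-/-(LPS) at 6.97 and WT(LPS) at 5.73, and no neighbouring arrays overlap in that order. *Lcn2* ran from miR-155-/-(LPS) at 12.91 through miR-155-/-(LPS + IL-10) at 12.40 and WT(LPS) at 12.16 to WT(LPS + IL-10) at 11.77, and in it the WT groups overlap and the middle neighbours overlap too. *S100a8* was highest in WT(LPS + IL-10) at 12.98, then miR-155-/-(LPS + IL-10) at 12.50, WT(LPS) at 12.08 and miR-155-/-(LPS) at 10.91, with no overlap. *S100a9* followed genotype, with WT(LPS + IL-10) at 7.82 and WT(LPS) at 7.11, which overlap, above miR-155-/-(LPS) at 3.98 and miR-155-/-(LPS + IL-10) at 3.37. *Hp* was highest in miR-155-/-(LPS + IL-10) at 10.46, followed by WT(LPS + IL-10) at 9.82, and the LPS groups at 9.12 in miR-155-/- and 9.07 in WT overlap. *S100a4* was lowest in WT(LPS + IL-10) at 11.64, miR-155-/-(LPS + IL-10) at 12.39 and WT(LPS) at 12.36 overlap, and miR-155-/-(LPS) lay just under both at 12.10. *Saa3*, at group means of 13.36 to 13.50, had no order beyond its spread.

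Across the 8 arrays, which share donors and treatments, *Saa1* and *Hp* ran most alike among the members (Pearson r = 0.89). The calprotectin subunits had r = 0.49, and *S100a8* and *Lcn2* ran opposite (r = −0.85). Among 8479 other genes with a mean of at least 6, those closest to *Saa1* were the monocyte chemokines *Ccl12* (0.979) and *Ccl8* (0.975) and *Csf3r*, the receptor of granulocyte colony-stimulating factor (0.965). Closest to *S100a8* were *Pgap6* (0.996), *Tfec*, a transcription factor of the MiT family (0.992), and the corepressor *Tle3* (0.992). Closest to *S100a9* were *Dubr* (0.978), the inflammatory caspase *Casp4* (0.976) and *Lrmda* (0.966), and closest to *Lcn2* were *Rasa4* (0.992), the lysosomal sulfatase *Ids* (0.991) and *Coro2a* (0.990). *Hp* was nearest to *Rell1* (0.951), *Toe1* (0.950) and *Fkbp4* (0.948), *S100a4* to *Emc8* (0.980), *Ddx49* (0.975) and *Shmt2* (0.955), and *Saa3* to the lysozyme *Lyz2* (0.943), *Lss* (0.897) and *Ppp2r1a* (0.892). With so many genes and 8 arrays such values are a description.

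The serum amyloid genes on chromosome 7 gave the members' largest differences with IL-10 and, within each genotype, also the smallest. The second probe set of *Saa1* read 8.97 and 8.77 in miR-155-/-(LPS + IL-10), against 5.52 and 5.28 in miR-155-/-(LPS), higher by 3.47 (SE 0.35, limma adjusted p = 0.00551). In WT(LPS + IL-10) it read 7.30 and 6.41, against 4.80 and 3.54 in WT(LPS), a difference of 2.68 (SE 0.35, adjusted p = 0.0804). *Saa2*, the acute phase neighbour of *Saa1*, read 6.87 and 6.90, against 5.24 and 4.95 in miR-155-/-(LPS), higher by 1.79 (SE 0.14, adjusted p = 0.00300), and was called without each of the 8 arrays in turn (highest adjusted p 0.0417). In WT BMDM *Saa2* read 5.67 and 5.36 with IL-10, against 4.29 and 4.17 without (1.29, SE 0.14, adjusted p = 0.0603). The brighter *Saa1* probe set is annotated with a transcript that RefSeq assigns to *Saa2*, and its suffix marks probes that match more than 1 transcript. Which of the 2 genes gave the signal of that probe set is uncertain. The second *Saa1* probe set has no such suffix, and RefSeq assigns its transcript to *Saa1*. The only *Saa2* probe set has another suffix, used for probes that can match other sequences. How far these probe sets tell the 2 genes apart was not tested. The only *S100a8* probe set carries the suffix of the brighter *Saa1* probe set, on a transcript that RefSeq assigns to *S100a8*. *Saa4*, the constitutive member, read 1.41 to 3.10 on its 2 probe sets over all arrays. *Saa3* had a mean IL-10 difference of 0.08 (95% interval −0.13 to 0.29), near the top of the array's scale. Whether a change could show at that level was not tested, which limits how far its small differences can be read.

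**Figure D4:**
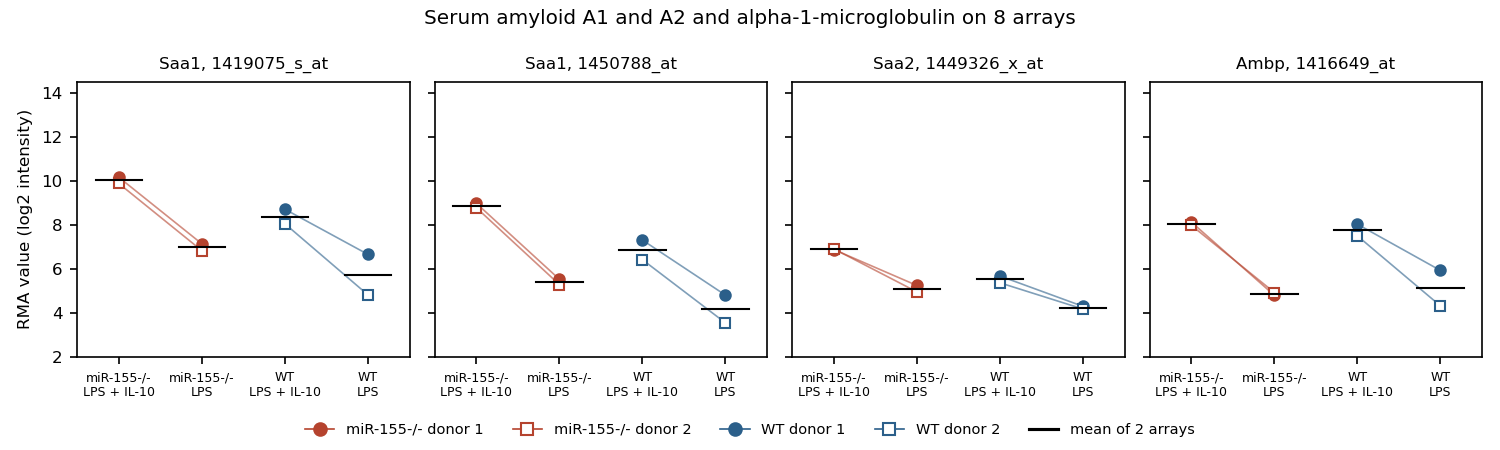
Deposited log2 RMA values of the 2 *Saa1* probe sets, *Saa2* and *Ambp* on each array (points, joined within a donor, with a bar at each group mean). In all 4 panels the LPS + IL-10 array lies above the LPS array of the same donor.

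Genes of the same families gave few further calls, to be read beside the shares of all probe sets given above for each comparison. Of 23 other acute phase genes measured, *Saa2* and *Mt2*, which encodes a metallothionein that binds zinc, were higher in miR-155-/-(LPS + IL-10) than in miR-155-/-(LPS), and the other 21 were not called (limma, median 0.02). *Mt2* read 12.18 and 11.86, against 10.31 and 9.98, higher by 1.88 (SE 0.31, adjusted p = 0.0315, highest 0.187 on leaving out single arrays). In the mean of both genotypes *Mt1* (0.67, adjusted p = 0.0188, highest 0.104) and the iron and copper reductase *Steap4* (1.14, adjusted p = 0.0176, highest 0.0872) were called too. These 2 genes are named because they make up the count, after their values were seen, and the other probe set of *Steap4* gave 0.17. None of the 23 was called in the other 3 comparisons, where 3 to 6 had an unadjusted p under 0.05 (limma). Of 45008 probe sets, 6207 had such a p between the genotypes under LPS, 4026 under LPS + IL-10 and 4172 for IL-10 in WT. The liver genes of the list were low, and 15 of the 23, among them *Crp*, *Apcs*, *Hpx* and *Fga*, read under 4 on every array.

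Of 13 other lipocalins, *Ambp*, which encodes the haem-binding alpha-1-microglobulin, was higher in miR-155-/-(LPS + IL-10), *Apod* was lower and 11 did not pass (limma, median −0.07). *Ambp* read 8.12 and 7.97 in miR-155-/-(LPS + IL-10), against 4.79 and 4.92 in miR-155-/-(LPS), higher by 3.19 (SE 0.39, adjusted p = 0.0115, highest 0.115 on leaving out single arrays). It read 8.02 and 7.49 in WT(LPS + IL-10), against 5.92 and 4.31 in WT(LPS). In the mean of both genotypes it was higher by 2.91 (adjusted p = 0.00421) and held without each array (highest 0.0338). *Apod* read 2.37 and 2.41, against 3.89 and 4.04 in miR-155-/-(LPS), at the level of genes of other tissues (−1.58, limma adjusted p = 0.0316). With 1 array left out its difference was −1.65 to −1.51, and the call depended on single arrays. The other probe set of *Apod* gave 0.19. Of 10 other S100 genes, *S100a1* (1.10, adjusted p = 0.0188, highest 0.145) and *S100a13*, which takes part in the release of proteins that lack a signal peptide (0.69, adjusted p = 0.0391, highest 0.253), were raised by IL-10 in the knockout cells, with 8 not called (median 0.17). *S100a6*, in the S100 cluster with *S100a4*, read 11.77 to 12.46 on all arrays, and *S100a10* read 11.71 to 12.27. Neither gene was called.

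Receptors of the proteins moved with genotype and IL-10 in a few cases. *Cd163*, the haemoglobin and haptoglobin receptor, read 5.70 and 6.28 in miR-155-/-(LPS), against 7.53 and 7.77 in WT(LPS), and was lower (−1.66, SE 0.29, limma adjusted p = 0.0491, highest 0.282 on leaving out single arrays). With IL-10 it read 7.24 and 8.11 in miR-155-/-(LPS + IL-10), higher than miR-155-/-(LPS) by 1.69 (SE 0.25, adjusted p = 0.0215, highest 0.174). *Emb*, which encodes embigin, described as a receptor of the S100A8 protein, was also lower in the knockout cells than in WT(LPS) (−1.27, adjusted p = 0.0297, highest 0.198) and rose with IL-10 in the knockout cells (1.45, adjusted p = 0.00830, highest 0.0908). The scavenger receptor *Cd36*, a receptor of serum amyloid A, fell in the knockout cells under LPS alone (−1.01, adjusted p = 0.0245, highest 0.167), and *Scarb1*, another such receptor, was higher in miR-155-/-(LPS + IL-10) (0.72, adjusted p = 0.0449, highest 0.276). Of the 14 receptors 3 were thus lower in the knockout under LPS, with 11 not called, and 3 were higher with IL-10 in the knockout, again with 11 not called. These counts stand beside 0.513% of all probe sets lower under LPS and 1.26% higher with IL-10 in the knockout. None was called between the genotypes under IL-10 or for IL-10 in WT, where 2 and 5 had an unadjusted p under 0.05 (limma). Of 45008 probe sets, 4026 and 4172 had such a p there.

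Among the regulators of these genes, *Rel*, an NF-kappaB subunit, *Il10ra*, the ligand-binding chain of the IL-10 receptor, and *Irf7* were called. *Il10ra* read 8.24 and 8.40 in miR-155-/-(LPS), against 7.45 and 7.49 in WT(LPS), higher by 0.85 (SE 0.13, limma adjusted p = 0.0324, highest 0.188 on leaving out single arrays), while its other probe sets gave 0.54 and 0.40 and were not called. *Rel* and *Irf7* were higher by 1.21 (adjusted p = 0.0361, highest 0.217) and 1.24 (adjusted p = 0.0381, highest 0.224). In miR-155-/-(LPS + IL-10) the same 3 were lower than in miR-155-/-(LPS): *Il10ra* read 7.30 and 7.31 (−1.02, adjusted p = 0.00773, highest 0.0756), and *Rel* and *Irf7* differed by −1.20 (adjusted p = 0.0160) and −1.26 (adjusted p = 0.0159, both with a highest of 0.139). The other 15 of 18, *Stat3*, *Cebpb*, *Cebpd* and *Socs3* among them, did not pass in either comparison. These calls, and those of the cytokines that follow, stand beside 0.951% of all probe sets higher and 0.513% lower under LPS. For IL-10 in the knockout the shares were 1.26% higher and 1.42% lower. A cytokine not named for a comparison was not called in it. Of 10 cytokines that induce the acute phase, *Il6* read 4.23 and 4.75 in miR-155-/-(LPS + IL-10), against 9.93 and 10.12 in miR-155-/-(LPS), and was lower (−5.54, SE 0.87, adjusted p = 0.0257, highest 0.175). *Il1a* (−3.29, adjusted p = 0.00489, highest 0.0609) and *Tnf* (−1.04, adjusted p = 0.0267, highest 0.198) were lower too, in the same cells in which *Saa1*, *S100a8* and *Hp* were higher. In miR-155-/-(LPS) against WT(LPS), *Il1a* was higher by 3.08 (adjusted p = 0.0141, highest 0.122) and *Csf3* was lower (−1.31, adjusted p = 0.0270, highest 0.165).

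The label of the cells was checked with marker genes. Macrophage markers were high on all arrays, with *Adgre1* at 12.72 to 12.90, *Csf1r* at 13.09 to 13.46 and *Cd68* at 12.37 to 12.80. Of the 11 measured, 1 was called: *Mrc1*, the mannose receptor, read 9.0 and 9.92 in miR-155-/-(LPS), against 12.25 and 12.10 in WT(LPS), and was lower (−2.71, SE 0.28, limma adjusted p = 0.0101, highest 0.0921). With IL-10 it read 12.07 and 12.22 in the knockout, higher by 2.68 (SE 0.24, adjusted p = 0.00441), and was called without each of the 8 arrays (highest 0.0448). Both calls have the direction of those of *S100a8*. The calls of *Mrc1* stand beside 0.513% of all probe sets lower under LPS and 1.26% higher with IL-10 in the knockout.

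Because calprotectin is abundant in neutrophils, 17 neutrophil and granulocyte markers were read beside it. Of these, 11, among them *Elane*, *Mpo*, *Ltf* and *Ngp*, read under 4 on every array and *Camp* read 4.99 to 6.30. In miR-155-/-(LPS) against WT(LPS) 2 of the 17 were called, both lower: *Mmp9* read 8.93 and 9.71, against 12.37 and 12.40 (−3.06, limma adjusted p = 0.00538, highest 0.0506), and *Mmp8* differed by −2.40 (adjusted p = 0.0463, highest 0.262). Macrophages also use these genes of secreted proteases. The 2 lower calls stand beside 0.513% of all probe sets lower in the same comparison. *Csf3r* and *Camp* had differences of the other sign, 0.46 (adjusted p = 0.213) and 0.64 (adjusted p = 0.393). With IL-10 *Csf3r* was higher in the knockout (1.09, adjusted p = 0.00886, highest 0.0887) and in the mean of both genotypes (1.08, adjusted p = 0.00268, highest 0.0211), in 4 of 4 donors, while *Mmp9* had a mean difference of −0.64 (adjusted p = 0.0984). The calls of *Csf3r* stand beside 1.26% and 1.17% of all probe sets higher. Between the genotypes under LPS + IL-10, *Mmp9* was called and no other of the 17. It read 8.34 and 8.78 in miR-155-/-, against 11.96 and 11.76 in WT (−3.30, SE 0.25, limma adjusted p = 0.0132). This lower call stands beside 0.0333% of all probe sets lower, and it depended on single arrays. The median of the 17 was 2.56 to 2.64 in miR-155-/-(LPS + IL-10), 2.54 to 2.63 in miR-155-/-(LPS), 2.66 to 2.81 in WT(LPS + IL-10) and 2.57 to 2.60 in WT(LPS). Their summed level on the log2 scale, to which *Mmp9* and *Mmp8* give most of the signal in WT, was 10.71 to 11.20, 10.23 to 10.72, 12.62 to 12.65 and 12.76 to 12.77 in the same order.

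Of 8 monocyte markers, *F13a1* was lower (−5.64, limma adjusted p = 0.0361, highest 0.223) and *Cx3cr1* higher (2.70, adjusted p = 0.0204, highest 0.109) in miR-155-/-(LPS), and *Cx3cr1* was lower with IL-10 in the knockout (−1.85, adjusted p = 0.0302, highest 0.175). *Ccr2*, which defines inflammatory monocytes, differed by 2.24 under LPS (adjusted p = 0.232) and by 2.43 under LPS + IL-10 (adjusted p = 0.392) between the genotypes. The calls of *F13a1* and *Cx3cr1* stand beside 0.513% of all probe sets lower and 0.951% higher under LPS, and 1.42% lower with IL-10 in the knockout. The list's summed level was 7.85 to 8.96 in miR-155-/-(LPS), against 9.51 to 11.93 in WT(LPS). The WT arrays of that list include high values of *Fn1* and *Plac8* in WT donor 1, at 10.72 and 9.29 under LPS, against 4.98 and 3.98 in WT donor 2. The part of these cells in the differences of *S100a8* and *S100a9* was not tested, and in RNA of whole cultures fewer cells of a type and less RNA per cell cannot be told apart.

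Fibroblast and stromal markers were high in 1 donor. Of 14, 13 were highest in WT donor 1, whose median was 7.44, against 3.17 and 4.70 in miR-155-/- donors 1 and 2 and 3.74 in WT donor 2. The other gene, *Lum*, was the 1 call of the list: it read 4.91 and 5.63 in miR-155-/-(LPS), against 2.63 and 2.77 in WT(LPS), higher by 2.57 (limma adjusted p = 0.0125, highest 0.109). The call of *Lum* stands beside 0.951% of all probe sets higher in the same comparison. *S100a4*, also a gene of fibroblasts, read 11.83 and 12.43 in WT donor 1, against 11.45 and 12.30 in WT donor 2. Without WT donor 1 its difference between miR-155-/-(LPS + IL-10) and the 1 WT(LPS + IL-10) array left was 0.94. The adipocyte gene *Adipoq* read 1.89 to 2.22. The number of arrays limits the precision, all pairs of arrays correlated at 0.970 to 0.996, and donors of 1 genotype are the only replicates, so p-values rest on 2 animals in each.

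**Figure D5:**
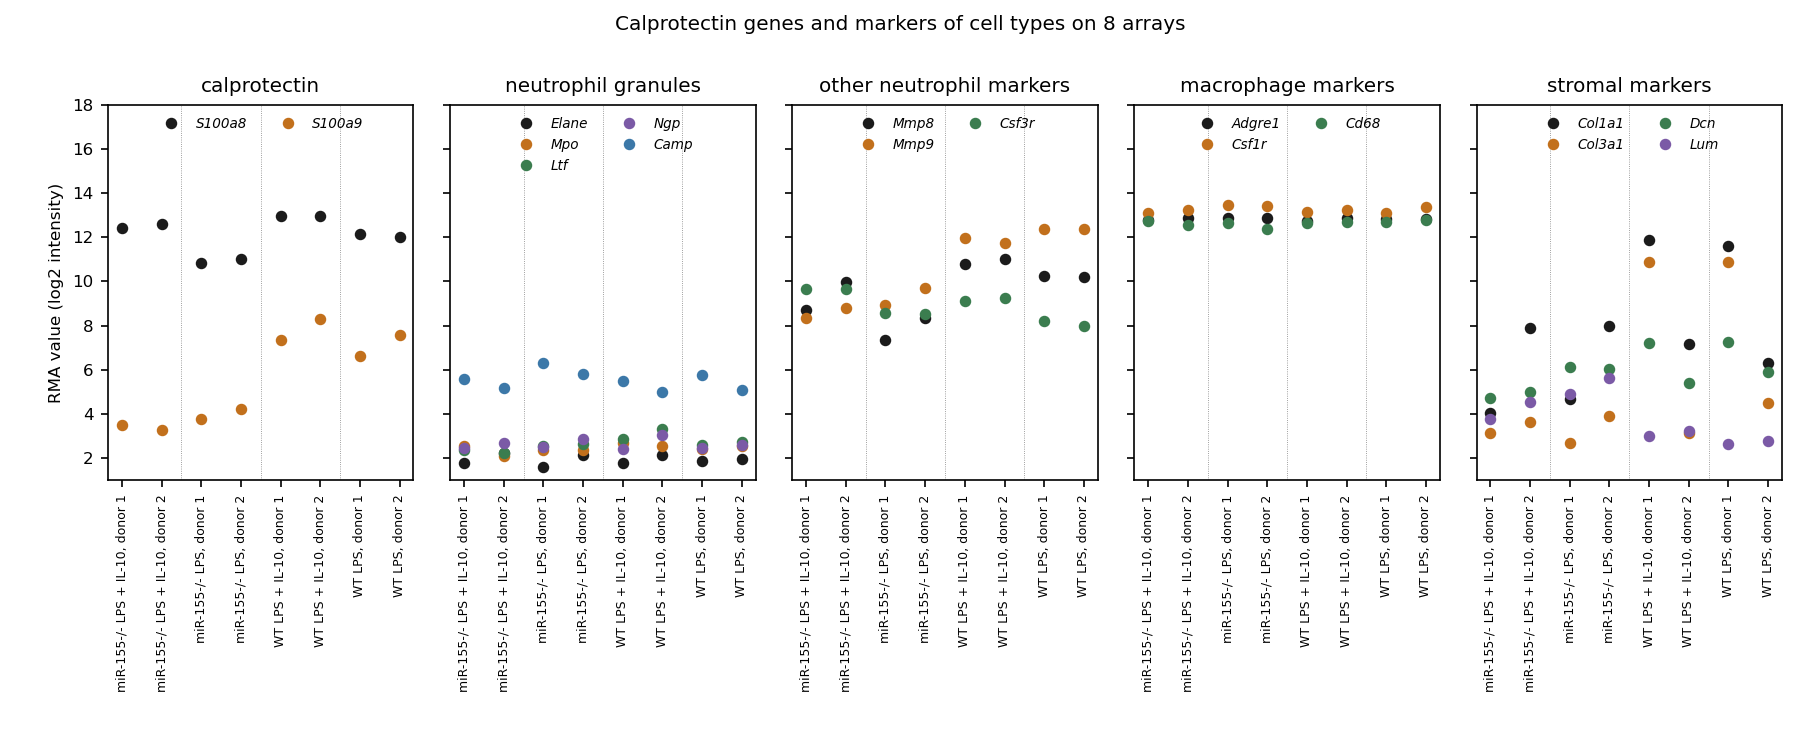
Deposited log2 RMA values of *S100a8* and *S100a9* and of markers of neutrophils, macrophages and stromal cells on the 8 arrays (points). The granule genes *Elane*, *Mpo*, *Ltf* and *Ngp* lie under 4 on every array, *Mmp9* and *Mmp8* are lower on the miR-155-/- arrays, and *Col1a1* is highest in WT donor 1.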

How the data were processed

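RNA from the 8 BMDM cultures was amplified (NuGEN) and hybridised to Affymetrix mouse genome arrays. The deposited log2 values were made by the authors with RMA in the affy package, which corrects background, normalises quantiles over arrays and gives 1 value per probe set without a filter. The sources used here do not give tool versions. The number of arrays limits the precision, and 0 array columns belonged to no sample.

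Of 45101 probe sets, 64 controls and 29 sex-linked ones were left out and 45008 were tested. A platform annotation gave 34958 probe sets 1 symbol, 932 several and 9211 none, and 0 symbols differed from the RefSeq table. limma 3.58.1 (R 4.3.3) fitted 4 group means over all 8 arrays, with the donor as a random block (consensus correlation 0.240) and Benjamini-Hochberg adjustment over all probe sets. Donors follow from genotype and replicate number, and deviations of the arrays of 1 donor correlated at 0.230 in miR-155-/- and 0.754 in WT. The fit was tested on simulated data. Promoters and the microRNA came from RefSeq tables (Python 3.11.15, pandas 2.3.3, Biopython 1.88), and figures were drawn with matplotlib 3.10.9.

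The 7 genes, the 13 gene lists and the tests were chosen with earlier results of these data known. All 7 genes are named, and from each list at most 5 called genes per pairwise comparison, those of lowest p, with defining genes named for their level. For each of the 7 genes the 3 of highest Pearson r are named. A gene was called near background in a group whose mean lay under the highest of 21 genes of other tissues, *Mbp*; the levels without *Mbp* were added after seeing the data. Alternatives were no donor block, a fixed donor block, only the arrays compared, array weights, median centring, a minimum mean of 6, a variance prior that follows intensity and is robust, leaving out each array or WT donor 1, and the selection of the study's methods.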

Additional observations from a re-analysis of the deposited data

Results flagged for a closer look

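*S100a9* and *S100a4* stood out because the IL-10 differences of the miR-155-/- donors and of the WT donors had opposite signs. For *S100a9* the IL-10 difference in miR-155-/- minus that in WT was −1.32 on the log2 scale (SE 0.46, limma adjusted p = 0.426). It was −0.27 and −0.95 in the miR-155-/- donors, whose arrays read at the level of genes of other tissues (3.25 to 4.20), and 0.70 and 0.73 in the WT donors. For *S100a4* it was 1.02 (SE 0.24, limma adjusted p = 0.307), with 0.56 and 0.02 in the miR-155-/- donors, the second within the spread of 0.20 between replicates (SD), and −0.60 and −0.84 in the WT donors. Neither difference passed the test after adjustment, and neither gene was called for IL-10 within a genotype (limma adjusted p = 0.3996 and 0.553 for *S100a9* and 0.438 and 0.264 for *S100a4*, in miR-155-/- and in WT).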

How the results depend on the processing

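With 2 animals per genotype the calls depend on single arrays. Of the members, with 1 array left out 0 to 2 were called in miR-155-/-(LPS) against WT(LPS), 0 to 1 in miR-155-/-(LPS + IL-10) against WT(LPS + IL-10), 1 to 2 for IL-10 in miR-155-/-, and 2 in the mean of both genotypes. Fitting only the arrays compared left 0 members called in either genotype comparison; for IL-10, and without WT donor 1, such fits took the donor correlation of all 8 arrays. Without the replicate block 1 member (*S100a8*) was called for IL-10 in miR-155-/-, and with the donor as a fixed replicate block 1 (*Saa1*) was called in WT. Among probe sets with a mean of at least 6, which leaves out *S100a9*, 0 were called between the genotypes under IL-10 and 2 for IL-10 in WT. The intensity trend gave 1 for IL-10 in WT and 1 for the difference of the IL-10 effects. Without WT donor 1 each WT group held 1 array, and *Saa1* differed by 3.23 for IL-10 in WT. The study's selection took 2 between the genotypes under IL-10, 1 for IL-10 in WT and 2 for the difference.

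Over all probe sets, 659 were called in miR-155-/-(LPS) against WT(LPS), 32 in miR-155-/-(LPS + IL-10) against WT(LPS + IL-10), 14 for IL-10 in WT, 1207 for IL-10 in miR-155-/-, 1168 in the mean and 15 for the difference. In the same order, a mean of at least 6 gave 1523, 216, 327, 3183, 2762 and 87, and the intensity trend gave 1574, 295, 244, 2422, 2099 and 105. Without the block 0 were called for IL-10 in WT, 492 in miR-155-/-, 559 in the mean and 1 for the difference, and the fixed block gave 66 in WT and 9 for the difference. Only the arrays compared gave 77 and 2 between the genotypes and 0 for IL-10 in WT. Array weights gave 4 for IL-10 in WT, 2411 in miR-155-/- and 8 for the difference, and median centring gave 49 for IL-10 in WT. Without WT donor 1 each WT group held 1 array, and counts for that fit are not given. The cause of these changes was not tested.

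Directions turned only for values that passed no test. Without WT donor 1, *Saa3* between the genotypes under IL-10 was 0.07 and *Saa1* in the difference of the IL-10 effects was −0.19. With 1 array left out, *Saa3* ranged over −0.09 to 0.12 for IL-10 in miR-155-/- and −0.16 to 0.06 between the genotypes under IL-10, *S100a9* over −0.14 to 0.24 in the mean of both genotypes (−0.04, −0.08 and −0.13 in the 3 other fits below 0), and *Hp* over −0.19 to 0.29 between the genotypes under LPS (also −0.14). In the difference of the IL-10 effects *Lcn2* ranged over −0.37 to 0.11 (also 0.01) and *Saa1* over −0.45 to 1.25. Apart from leaving out single arrays, 406 results kept their direction and side of the threshold, 10 lost and 10 gained a call and 2 turned.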
